A study of Mus musculus with 32 samples.

Results

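Levels of Pou5f1, Nanog and Sox2 were followed in mouse embryonic stem (ES) cells in which Pou5f1 or Nanog had been knocked down by RNA interference (RNAi), and during differentiation with 3 chemicals. The members were all probes annotated to exactly 1 of these gene symbols and to no other gene. On the RNAi arrays these were 3 of 45101 probe sets, namely 1417945_at for Pou5f1, 1429388_at for Nanog and 1416967_at for Sox2. On the 2-colour arrays they were 3 of 21106 probes, namely 1110171 for Pou5f1, 1095301 for Nanog and 1108286 for Sox2. All 6 had a value on every array of their platform and all 6 were tested, so each gene rests on a single probe or probe set per platform. The position of these probes within their transcripts was not analysed here.

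All cells were E14TG2a, an established mouse ES cell line. For RNAi, cells received the pSUPER-puro plasmid, which drives a short hairpin RNA from a plasmid promoter, and were selected with puromycin at 1 µg/ml for 3 days, beginning 24 hours after transfection. The groups were the parental vector (5 arrays), Nanog RNAi (5 arrays) and Pou5f1 RNAi (4 arrays), each measured on Affymetrix mouse arrays. The series text speaks of siRNA where the sample labels describe constructs, and neither gives the targeted sequence. The control was the parental plasmid, and no group carried RNAi against an unrelated gene. For differentiation, cells were treated with 0.1 µM retinoic acid (RA), 1% dimethyl sulfoxide (DMSO) or 3 mM hexamethylene bisacetamide (HMBA). RNA was taken on days 2, 4 and 6 and hybridised with RNA of untreated E14 cells on 2-colour arrays. Each treatment and day had 2 arrays of opposite dye orientation, with the treated sample in Cy3 on replicate 1 and in Cy5 on replicate 2. The labels do not say that arrays of a group came from separate cultures, so the p-values measure the spread between arrays, which may be technical.

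Pou5f1 encodes Oct4, a POU-domain transcription factor, and Sox2 encodes an HMG-box factor that binds DNA next to it at composite sites. Nanog is a homeodomain protein whose own promoter carries such a composite site. In ES cells these proteins bind many enhancers together, including their own, and keep the cells undifferentiated. Loss of Oct4 turns ES cells toward trophectoderm, the outer lineage of the blastocyst, while loss of Nanog favours primitive endoderm. RA acts through nuclear receptors, some of whose binding sites share the letters AGGTCA.

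The promoter of each gene is shown and was searched for letters through which these factors and the receptors of RA can bind. The sequences are the 250 bases before the annotated start in RefSeq on GRCm38.p6, all on the plus strand, 5′ to 3′. They lie at chr17:35505782-35506031 for Pou5f1, chr6:122707239-122707488 for Nanog and chr3:34649745-34649994 for Sox2. Capitals mark matches to the Oct4 core ATGCAAA, the Sox2 core CATTGT, or the nuclear receptor core AGGTCA, each searched on both strands. Where CATTGT is followed by any 1 base and then ATGCAAA, the match was counted as a Sox2-Oct4 composite, so a composite contains both cores.
Pou5f1: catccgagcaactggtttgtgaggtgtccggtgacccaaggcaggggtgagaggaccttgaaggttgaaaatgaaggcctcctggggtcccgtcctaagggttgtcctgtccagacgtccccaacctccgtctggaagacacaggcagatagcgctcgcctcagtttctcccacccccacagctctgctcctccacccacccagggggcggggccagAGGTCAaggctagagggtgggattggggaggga
Nanog: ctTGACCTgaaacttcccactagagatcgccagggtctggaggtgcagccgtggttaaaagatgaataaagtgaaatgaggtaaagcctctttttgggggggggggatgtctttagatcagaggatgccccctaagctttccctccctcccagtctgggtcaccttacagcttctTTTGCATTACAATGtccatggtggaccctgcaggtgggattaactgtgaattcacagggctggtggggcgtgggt
Sox2: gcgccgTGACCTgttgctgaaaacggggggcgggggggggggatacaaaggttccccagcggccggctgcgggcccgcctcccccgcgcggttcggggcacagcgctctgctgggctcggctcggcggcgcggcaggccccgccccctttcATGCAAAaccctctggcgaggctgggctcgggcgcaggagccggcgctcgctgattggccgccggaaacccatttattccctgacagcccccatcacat

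The Nanog window held the composite on the minus strand, from 75 to 62 bases before the start. Among 32851 promoter windows of 27025 genes, 2 held this exact string (0.00609%), and both belonged to Nanog, whose alternative start lies close to the one shown. The Sox2 window held the Oct4 core alone on the plus strand, from 99 to 93 bases before the start, a string found in 4.12% of windows. The Pou5f1 window shown held neither the Oct4 nor the Sox2 core, and the Sox2 core was present in 10.7% of all windows. AGGTCA was present in all 3 windows shown, as it was in 14% of windows overall. In Pou5f1 it lay on the plus strand from 33 to 28 bases before the start. In Nanog and Sox2 it lay on the minus strand, from 248 to 243 and from 244 to 239 bases before the start. The windows of an alternative start of Pou5f1 and of Nanog, not shown, held no AGGTCA. That Pou5f1 window held the Sox2 core on the minus strand, from 158 to 153 bases before its start. These are matches of letters in a window of fixed length and are not evidence of binding. More distant enhancers were not analysed here.

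Before comparing the groups, the labelled cell type was checked on its markers. In vector cells the mean levels of 6 ES cell markers (Zfp42, Dppa5a, Fgf4, Tdgf1, Utf1 and Dppa4) ran from 9.51 to 13.4 on the log2 scale, and those of 7 fibroblast markers from 3.38 to 5.18. The log2 of the summed fibroblast marker level lay between 6.97 and 7.23 on all 14 arrays. All 14 RNAi arrays had values for every probe set. The 2-colour arrays had between 11257 and 20019 values, and the DMSO day 4 array with the sample in Cy5 had both the fewest values and the widest spread of log ratios.

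Pou5f1 RNAi lowered all 3 factors. Nanog RNAi lowered Nanog strongly and Sox2 slightly, while no change of Pou5f1 was called. The levels below are RMA values on the log2 scale, a change is a difference of group means with its standard error (SE), and a call is a limma adjusted p under 0.05 over 45037 probe sets. In bulk RNA a fall in the share of cells that express a gene and a fall in RNA per cell cannot be told apart.

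**Figure D1:**
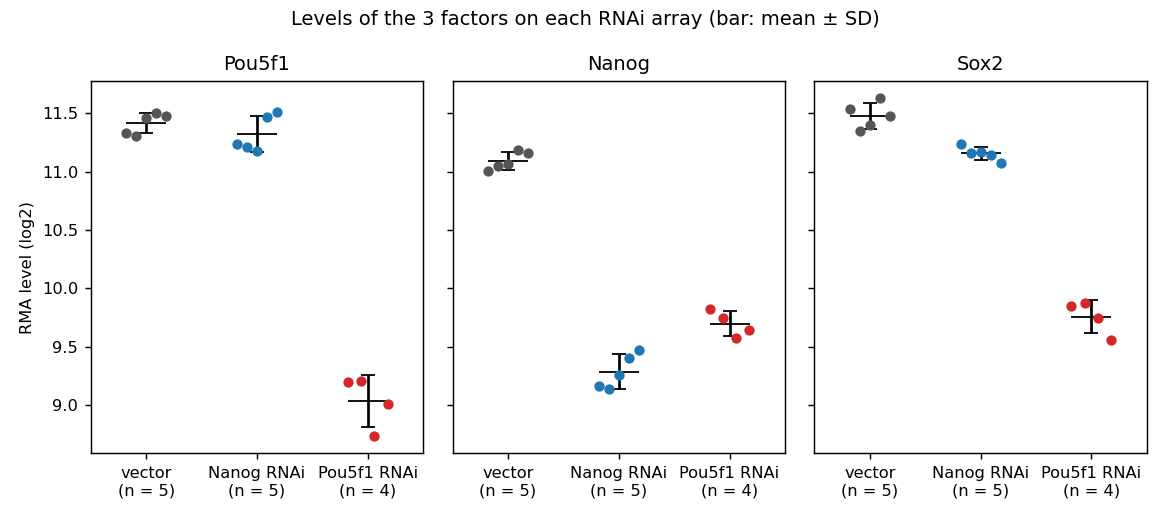
RMA level (log2) of Pou5f1, Nanog and Sox2 on each of the 14 RNAi arrays, with points for arrays and bars for the mean ± SD of a group. Pou5f1 RNAi arrays lie below every vector array for all 3 genes, while Nanog RNAi arrays overlap the vector arrays for Pou5f1 alone.

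Pou5f1, the target of the Pou5f1 construct, stood at 11.34, 11.31, 11.46, 11.51 and 11.48 on the vector arrays. On the Pou5f1 RNAi arrays it stood at 9.19, 9.21, 8.73 and 9.01. The groups did not overlap, and the knockdown matched the labels. The change was -2.38 (SE 0.10, limma adjusted p = 1.12e-13), which left 19.2% of the vector level (95% interval 16.6 to 22.2). Over all probe sets 15.6% were called lower and 16% higher in this comparison, and 76 of 45037 fell by more than Pou5f1. Nanog RNAi arrays gave Pou5f1 levels of 11.24, 11.21, 11.18, 11.47 and 11.51. Of these, 3 lay below every vector array and the other two within or just above the vector range. The change of -0.10 (SE 0.095) was not called (adjusted p = 0.61), and its interval ran from 81.5% to 107% of the vector level.

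Nanog, the homeodomain factor, stood at 11.003, 11.05, 11.06, 11.19 and 11.16 in vector cells. Its levels on the Nanog RNAi arrays were 9.16, 9.14, 9.26, 9.40 and 9.47, all below the vector arrays. The change of -1.81 (SE 0.080, adjusted p = 2.1e-12) left 28.6% of the vector level (25.4 to 32.1). In this comparison 6.78% of probe sets were called lower and 8.8% higher, and 5 probe sets fell by more than Nanog. Pou5f1 RNAi arrays gave Nanog levels of 9.82, 9.75, 9.57 and 9.64, again without overlap with vector. The change was -1.40 (SE 0.085, adjusted p = 3.41e-11), to 38% of the vector level (33.6 to 42.9). It was lower under its own RNAi than under Pou5f1 RNAi, with a difference of 0.41 (SE 0.085, adjusted p = 0.00066), and the arrays of the 2 RNAi groups did not overlap. Between these RNAi groups 29.5% of probe sets were called in either direction.

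Sox2, the HMG-box partner of Oct4, was targeted by neither construct. Vector arrays gave 11.54, 11.35, 11.40, 11.63 and 11.47. Pou5f1 RNAi arrays gave 9.85, 9.88, 9.75 and 9.56, all more than a whole log2 unit below the lowest vector array. The change of -1.72 (SE 0.082, adjusted p = 7.12e-13) left 30.3% of the vector level (26.9 to 34.1). After Nanog RNAi the levels were 11.24, 11.16, 11.17, 11.15 and 11.08. These 5 arrays also lay below every vector array, but close to them. Sox2 fell by 0.32 (SE 0.077, adjusted p = 0.00539) to 80% of the vector level (71.5 to 89.4), and 2380 of 45037 probe sets fell by more. The direct difference of Pou5f1 RNAi minus Nanog RNAi was -1.40 for Sox2 (SE 0.082, adjusted p = 2.14e-11) and -2.29 for Pou5f1 (SE 0.10, adjusted p = 2.9e-13).

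The factors did not fall by equal amounts on the same arrays. Within-array differences between 2 factors were compared with vector by two-sided exact permutation tests, with adjustment over 6 tests. After Pou5f1 RNAi, the change of Pou5f1 minus that of Nanog was -0.99, Pou5f1 minus Sox2 was -0.66, and Nanog minus Sox2 was 0.32, so Pou5f1 fell furthest and Nanog least. Each of these exact tests gave p = 0.01587, the smallest that 4 against 5 arrays allow, and an adjusted p of 0.01905. After Nanog RNAi, the change of Pou5f1 minus that of Nanog was 1.71 and Nanog minus Sox2 was -1.49 (exact p = 0.007937 and adjusted p = 0.01905 for both). The difference of 0.23 between Sox2 and Pou5f1 after Nanog RNAi did not pass (exact p = 0.05556, adjusted p = 0.05556). Nanog RNAi therefore lowered Sox2 against vector, while a larger change of Sox2 than of Pou5f1 was not shown.

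Markers of some other lineages moved on the same arrays. All 8 trophectoderm markers measured (Cdx2, Eomes, Krt8, Krt18, Krt7, Gata3, Hand1 and Ascl2) were called higher in each RNAi group. The log2 of their summed level was 8.91 to 9.11 on vector arrays, 10.8 to 11.3 after Nanog RNAi and 14.2 to 14.3 after Pou5f1 RNAi. For the 7 primitive endoderm markers (Gata4, Gata6, Sox17, Sox7, Dab2, Foxa2 and Pdgfra) the sum was 9.23 to 9.34, 9.31 to 9.73 and 8.21 to 8.31 in the same order. Of these, 3 were called higher after Nanog RNAi and 5 lower after Pou5f1 RNAi. For the ES cell markers the sum was 14.2 to 14.4, 14.1 to 14.2 and 12.7 to 13.0 in that order. Of 5 neural markers, 2 rose and 1 fell by call with Pou5f1 RNAi, and 2 fell with Nanog RNAi. Of 4 mesoderm markers, 1 rose by call in each RNAi group, namely Eomes, which is also on the trophectoderm list. As background, Nanog RNAi raised 8.8% of all probe sets by call and lowered 6.78%. For Pou5f1 RNAi these shares were 16% and 15.6%. The part of such cell types in the falls of the 3 factors was not tested.

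In the 2-colour series each value is a log ratio of treated over untreated cells, and no source used here states its base, which was taken as 2. A percent of the untreated level below rests on that base. Calls are limma adjusted p under 0.05 over 16657 probes. Because each pair of arrays differs in dye orientation, the text also gives the fit with a term for orientation wherever that term changes a call of the 3 factors or a count of listed genes. Averaged over days 2, 4 and 6, RA lowered Pou5f1 and Sox2 while Nanog lay at the threshold, and DMSO and HMBA lowered all 3. On the same arrays the 6 ES cell markers were called lower in RA (6), DMSO (5) and HMBA (6), and 4, 1 and 4 of 7 trophectoderm markers were called higher. Of 5 primitive endoderm markers 3 were called higher in RA, 0 in DMSO and 1 in HMBA. Of 5 fibroblast markers 3, 1 and 2 were called higher in the same order, among them the collagen gene Col1a2 in each (3.22, 1.47 and 2.80). Called lower were 1 trophectoderm marker in HMBA (Eomes, -0.69) and 1 fibroblast marker in DMSO. Over all probes 14.6%, 9.4% and 13.4% were called higher in RA, DMSO and HMBA, and 10.5%, 7.62% and 11.4% lower. When the fit held dye orientation, 6 ES cell markers were lower in each treatment. The counts higher in RA, DMSO and HMBA were then 4, 3 and 4 for trophectoderm, 4, 2 and 3 for primitive endoderm, and 3, 2 and 2 for fibroblasts. Lower in that fit were Krt18 in RA, Eomes in HMBA, and the fibroblast marker Postn in DMSO and HMBA. It called 26.2%, 22.8% and 24.2% of all probes higher in these treatments, and 23.3%, 18.4% and 23.7% lower. Of 4 neural markers, 1 rose and 1 fell by call in each treatment without the dye term. With it, 2 rose and 1 fell in RA and in HMBA, and 1 rose and 2 fell in DMSO. Of 2 mesoderm markers, 1 fell by call in RA and 1 in HMBA in either fit. In DMSO 2 rose with the dye term only. The part of such cell types in the ratios was not tested.

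**Figure D2:**
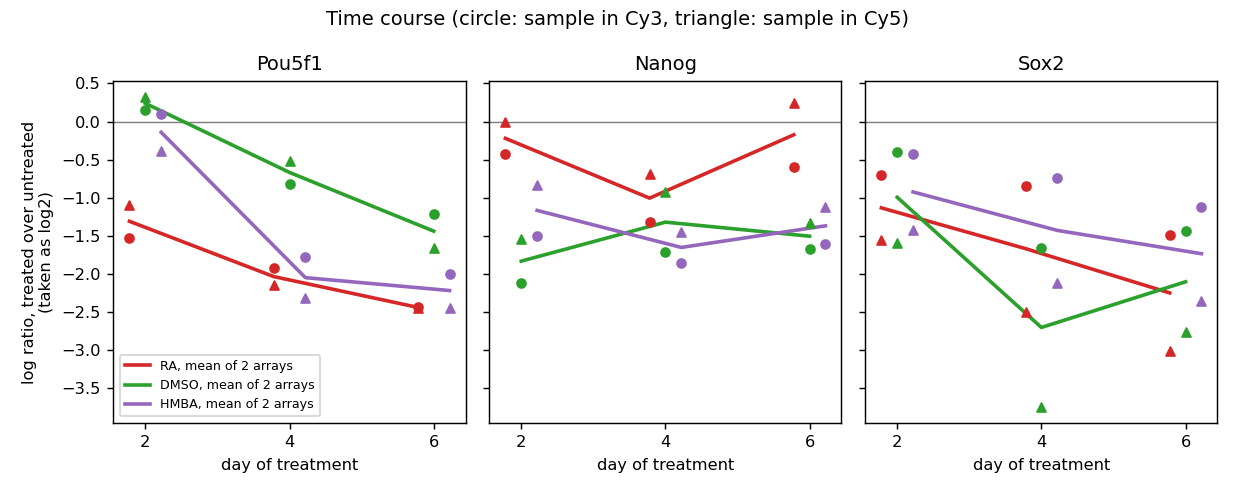
Log ratio of treated over untreated cells (taken as log2) against day of treatment for each gene, with circles for arrays with the sample in Cy3, triangles for Cy5 and lines through the mean of 2 arrays. Pou5f1 after DMSO begins near 0 on day 2 and ends at a mean of -1.44 on day 6, while Nanog after DMSO already stands at -1.83 on day 2.

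The mean of Pou5f1 over days was below 0 in each treatment, and a difference in time course between treatments was not tested. In RA the Cy3 and Cy5 arrays gave -1.53 and -1.09 on day 2, -1.93 and -2.15 on day 4, and -2.43 and -2.45 on day 6. In DMSO the same pairs gave 0.15 and 0.33, then -0.82 and -0.51, then -1.22 and -1.66. In HMBA they gave 0.10 and -0.38, then -1.78 and -2.32, then -1.996 and -2.44. RA was thus the treatment in which both day 2 arrays lay well below 0. By day 4 the RA and HMBA arrays overlapped, and the DMSO arrays lay above both.

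The RA mean of Pou5f1 was -1.93 (SE 0.11, adjusted p = 1.55e-07), or 26.3% of the untreated level (22.1 to 31.2), against 10.5% of probes called lower. The HMBA mean was -1.47 (SE 0.11, adjusted p = 1.56e-06), or 36.1% (30.4 to 42.9), against 11.4% of probes called lower. The DMSO mean was -0.62 (SE 0.11, adjusted p = 0.00218), or 65% (54.7 to 77.2), against 7.62% of probes called lower. That last call was lost when each dye pair was averaged and days served as replicates (adjusted p = 0.302). Day by day, Pou5f1 was called lower in RA on day 2 (adjusted p = 0.00167), day 4 (3.32e-05) and day 6 (7.2e-06), where 1.99%, 3.45% and 5.3% of probes were called lower. In DMSO day 2 was not called (adjusted p = 1), day 4 missed the threshold (0.0684) and day 6 passed it (0.000536), where 1.14%, 3.18% and 4.59% of probes were called lower. With dye orientation in the fit the DMSO day 4 fall was also called (adjusted p = 0.00561). In HMBA day 2 was not called (adjusted p = 0.891) but days 4 (2.82e-05) and 6 (1.45e-05) were, where 1.94%, 5.14% and 5.9% of probes were called lower.

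Direct comparisons put RA apart from DMSO for Pou5f1. The RA mean minus the DMSO mean was -1.31 (SE 0.16, adjusted p = 0.000326), in a comparison that called 6.19% of probes in either direction. The DMSO mean was higher than the HMBA mean by 0.85 (SE 0.16, adjusted p = 0.0216), where 1.45% of probes were called. With dye pairs averaged and days as replicates neither difference was called (adjusted p = 0.25 and 0.758). The DMSO against HMBA call was also lost on leaving out any 1 of 7 of the 18 arrays. These were the 2 DMSO day 2 arrays, DMSO day 4 in Cy5, DMSO day 6 in Cy3, and the HMBA arrays in Cy5 on days 2, 4 and 6. Over all single omissions that difference ran from 0.76 to 0.94 and its adjusted p up to 0.0851. RA and HMBA differed by -0.46 (SE 0.16), which was not called (adjusted p = 0.208) among 3.28% of probes that were, but was called with dye orientation in the fit (adjusted p = 0.0258).

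On day 2 alone, Pou5f1 was lower in RA than in DMSO (difference -1.55, SE 0.28, adjusted p = 0.0158), where 1.16% of probes were called. The RA minus HMBA difference of -1.17 passed with dye orientation in the fit (adjusted p = 0.0053) but not without it (0.119, with 0.666% of probes called). DMSO and HMBA on day 2 differed by 0.38 (95% interval -0.23 to 0.99), which neither fit called, in a comparison that called 0.108% of probes. From day 2 to day 6, Pou5f1 changed by -1.68 in DMSO (adjusted p = 0.0134) and by -2.08 in HMBA (adjusted p = 0.00226). The change of -1.13 in RA was called with dye orientation in the fit (adjusted p = 0.00402) and not without it (0.092). Between these days 0.378% of probes were called lower in RA, 0.468% in DMSO and 0.798% in HMBA without the dye term. With it these shares were 4.51%, 4.53% and 5.34%.

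Nanog was read on the same arrays. In RA its Cy3 and Cy5 arrays gave -0.43 and -0.01 on day 2, -1.32 and -0.69 on day 4, and -0.59 and 0.25 on day 6. In DMSO they gave -2.12 and -1.54, then -1.72 and -0.92, then -1.67 and -1.34. In HMBA they gave -1.50 and -0.83, then -1.85 and -1.45, then -1.61 and -1.12. All DMSO and HMBA arrays lay below 0 on every day, and the lowest RA values were those of day 4. The DMSO mean was -1.55 (SE 0.16, adjusted p = 2.82e-05), or 34.1% of the untreated level (26.7 to 43.5), and the HMBA mean was -1.40 (SE 0.16, adjusted p = 3.94e-05), or 38% (29.8 to 48.5).

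The RA mean of Nanog was -0.47 (SE 0.16), or 72.3% of the untreated level (56.7 to 92.3), and it lay at the threshold. It was not called without a dye term (adjusted p = 0.0522) and was called with it (adjusted p = 2.33e-05). Arrays with the sample in Cy3 averaged -0.78 and those in Cy5 -0.15. Leaving out the RA day 6 array in Cy5 moved the RA mean to -0.61 (adjusted p = 0.0314). Leaving out either DMSO day 4 array also brought the adjusted p to 0.0435, with the mean itself unmoved. By day, Nanog in RA was called lower on day 4 (adjusted p = 0.0418) and on neither day 2 (0.882) nor day 6 (0.766), with or without the dye term. In DMSO it was called lower on day 2 (adjusted p = 0.00428), day 4 (0.0127) and day 6 (0.00402), and in HMBA on day 2 (0.0308), day 4 (0.00177) and day 6 (0.00619).

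Nanog was higher in RA than in DMSO by 1.09 (SE 0.23, adjusted p = 0.0125), a difference called on every single omission. It was higher in RA than in HMBA by 0.93 (SE 0.23, adjusted p = 0.0466). This call was lost on leaving out any 1 of 13 of the 18 arrays, with differences of 0.79 to 1.07 and adjusted p up to 0.15 over all single omissions. The 5 arrays whose omission kept it were RA day 4 in Cy3, RA day 6 in Cy3, both DMSO day 4 arrays and HMBA day 2 in Cy5. With dye orientation in the fit the RA against HMBA difference had an adjusted p of 2.95e-06. DMSO and HMBA differed by -0.16 (95% interval -0.65 to 0.34), which neither fit called. On day 2 Nanog was higher in RA than in DMSO by 1.61 and higher than in HMBA by 0.95, and both differences passed only with dye orientation in the fit (adjusted p = 6.9e-06 and 0.00257, against 0.098 and 0.862). No change from day 2 to day 6 was called for Nanog, with changes of 0.05 in RA, 0.33 in DMSO and -0.20 in HMBA.

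Sox2 lay below 0 on all 18 arrays. In RA its Cy3 and Cy5 arrays gave -0.71 and -1.56 on day 2, -0.84 and -2.50 on day 4, and -1.49 and -3.01 on day 6. In DMSO they gave -0.40 and -1.59, then -1.66 and -3.75, then -1.44 and -2.77. In HMBA they gave -0.42 and -1.43, then -0.74 and -2.12, then -1.12 and -2.35. The Cy5 array was the lower in all 9 pairs, and the gap within a pair was often as large as the change between days. The means were -1.68 in RA (SE 0.35, adjusted p = 0.00355), -1.93 in DMSO (SE 0.35, adjusted p = 0.00209) and -1.36 in HMBA (SE 0.35, adjusted p = 0.0125). They correspond to 31.1% (18.3 to 53), 26.2% (15.4 to 44.5) and 38.9% (22.8 to 66.2) of the untreated level. The HMBA call was lost without the Cy5 array of day 2 (mean -1.20, adjusted p = 0.0678), of day 4 (-1.13, 0.0756) or of day 6 (-1.16, 0.0695).

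With dye orientation in the fit the SE of each Sox2 treatment mean fell from 0.35 to 0.094, and all 9 treatment and day combinations were called lower. Without it Sox2 was called on 3 of the 9, namely RA day 6 (adjusted p = 0.0271), DMSO day 4 (0.0185) and DMSO day 6 (0.0474). The dye term raised the share of all probes called lower as well, to 23.3% in RA, 18.4% in DMSO and 23.7% in HMBA for the means. For days 2, 4 and 6 that share became 9.44%, 13.5% and 18.4% in RA, 4.98%, 11.6% and 14.3% in DMSO, and 9.68%, 15.1% and 16.4% in HMBA. Between treatments it became 22.7% in either direction for RA against DMSO, 16.5% for RA against HMBA and 9.68% for DMSO against HMBA. On day 2 alone these shares were 6.59%, 4.21% and 1.1% in the same order.

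Between treatments the Sox2 means lay within 0.57 of each other. RA and DMSO differed by 0.25 (95% interval -0.84 to 1.34), RA and HMBA by -0.32 (-1.41 to 0.76), and DMSO and HMBA by -0.57 (-1.66 to 0.51). None was called without the dye term, and with it DMSO was called lower than HMBA (adjusted p = 0.00994). These intervals are wide, so the missing calls do not show that the treatments acted alike. On day 2 no difference between treatments was called for Sox2. From day 2 to day 6 the changes were -1.12 in RA, -1.11 in DMSO and -0.81 in HMBA. These were called with the dye term only (adjusted p = 0.00412, 0.00442 and 0.032), in fits that called 4.51%, 4.53% and 5.34% of probes lower.

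**Figure D3:**
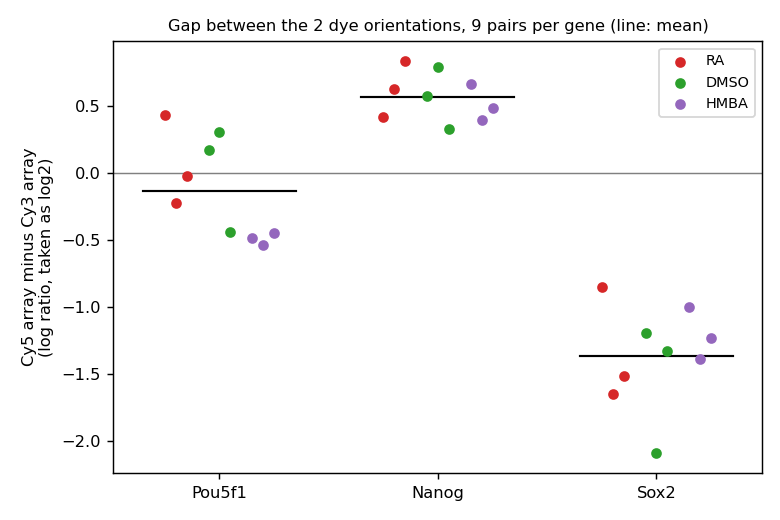
Log ratio on the array with the sample in Cy5 minus that on its partner with the sample in Cy3 (taken as log2) for 9 pairs per gene, coloured by treatment, with a line at the mean. All 9 Sox2 gaps lie below 0 and all 9 Nanog gaps above 0, while Pou5f1 has 6 of 9 below 0.

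The gap between orientations kept a single sign for Sox2 and for Nanog, and changed sign between pairs for Pou5f1. For Sox2 the Cy5 array minus the Cy3 array averaged -1.36 ± 0.37 (SD over 9 pairs), from -2.10 to -0.85, and 217 of 16654 probes (1.30%) had a lower mean gap. For Nanog it averaged 0.57 ± 0.18, from 0.34 to 0.84, and 86.3% of probes had a lower mean gap. For Pou5f1 it averaged -0.14 ± 0.37, from -0.54 to 0.43, and 41.3% of probes had a lower mean gap. Read on arrays of a single orientation, Sox2 averaged -1.01 (Cy3) and -2.36 (Cy5) in RA, -1.16 and -2.70 in DMSO, and -0.76 and -1.97 in HMBA. The direction was the same in each orientation, but the size of the Sox2 fall differed by over 1 log2 unit between them. Its within-group SD of 0.995 exceeded that of 97.5% of the 10763 probes with a value on every array, against 61.8% for Nanog (0.42) and 31.2% for Pou5f1 (0.27). On the RNAi arrays the within-group SDs were 0.16 for Pou5f1, 0.12 for Nanog and 0.11 for Sox2, and the median over probe sets was 0.14. The source of the orientation gap was not tested.

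**Figure D4:**
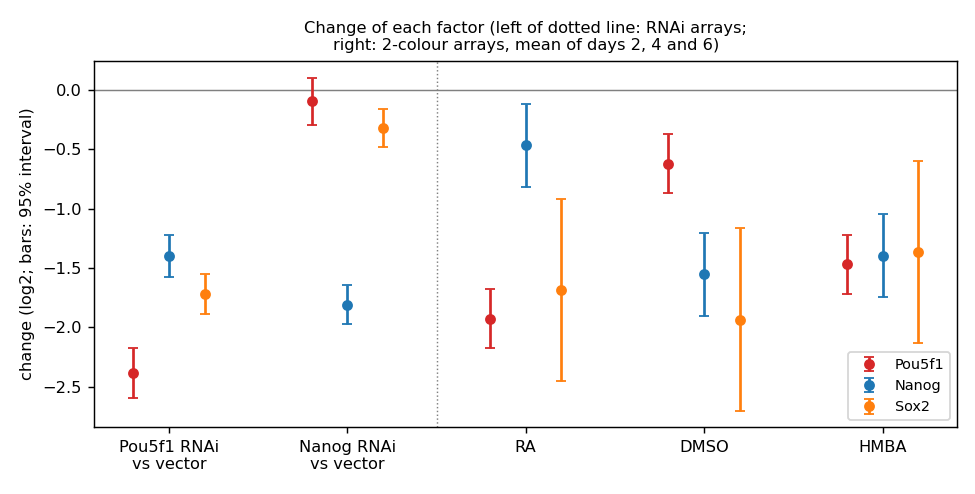
Fitted change of each factor (log2) with its 95% interval, against vector in the RNAi groups and against untreated cells as the mean of days 2, 4 and 6 in the treatments. Pou5f1 has its lowest value after Pou5f1 RNAi (-2.38) and values near 0 after Nanog RNAi (-0.10), and the Sox2 intervals in the treatments are the widest.

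Differences between factors within a treatment were tested over the 6 arrays of that treatment by two-sided exact sign-flip permutation, in 9 tests whose smallest possible p is 0.03125. In RA, Pou5f1 lay below Nanog on 6 of 6 arrays, with a mean difference of -1.46 (exact p = 0.03125, adjusted p = 0.1406). In DMSO the order was turned, with Pou5f1 above Nanog on 5 of 6 arrays, by 0.93 (exact p = 0.0625, adjusted p = 0.1875). Pou5f1 also lay above Sox2 on 6 of 6 DMSO arrays, by 1.31 (exact p = 0.03125, adjusted p = 0.1406). In HMBA the mean differences between factors were at most 0.11 in size, with exact p of 0.7188 or more. These HMBA means pool days on which the order of the factors differed. On day 2 Pou5f1, Nanog and Sox2 averaged -0.14, -1.17 and -0.92, and on day 6 -2.22, -1.37 and -1.74. No difference passed after adjustment over the 9 tests. The 6 arrays span 3 days and 2 dye orientations, so changes over days and the gap between orientations can add to the spread. The missing passes therefore do not show that the factors fell alike.

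Among genes known to be switched on through Oct4 and Sox2 sites, 5 of 6 listed were measured, and all 5 fell after Pou5f1 RNAi, where 15.6% of all probe sets were called lower. Their median change was -1.79, against -0.04 over all probe sets. Fgf4, a growth factor of ES cells, changed by -3.12 (adjusted p = 4.83e-15) and Lefty1, an inhibitor of Nodal, by -2.75 (6.9e-15). The change was -1.79 for Zfp42, the ES cell marker also called Rex1, and -1.35 for the chromatin factor Utf1. Fbxo15, an F-box gene bound by Oct4 and Sox2, fell by 1.12. Fgf4, Zfp42 and Utf1 are also among the ES cell markers above. After Nanog RNAi the median was -0.18 against -0.02 over all probe sets. Fgf4 (-1.42) and Zfp42 (-0.59) fell, Fbxo15 rose by 0.35 (adjusted p = 0.00522), and Utf1 (-0.18) and Lefty1 (0.12) were not called. In the treatments 4 of the 5 were called lower in RA, 3 in DMSO and 5 in HMBA, where 10.5%, 7.62% and 11.4% of all probes were, with medians of -1.45, -2.45 and -2.24 against -0.02, 0.02 and -6e-04 over all probes. With dye orientation in the fit the DMSO count was 5, where 18.4% of all probes were called lower. Fgf4 fell in all 3, with means of -2.22 in RA, -2.45 in DMSO and -2.24 in HMBA. For Fbxo15 these means were -0.91, -3.05 and -2.98, and for Zfp42 they were -1.79, -3.89 and -3.05. Lefty1 fell in HMBA by 1.38 and was not called in RA (-0.0022) or DMSO (-0.27).

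**Figure D5:**
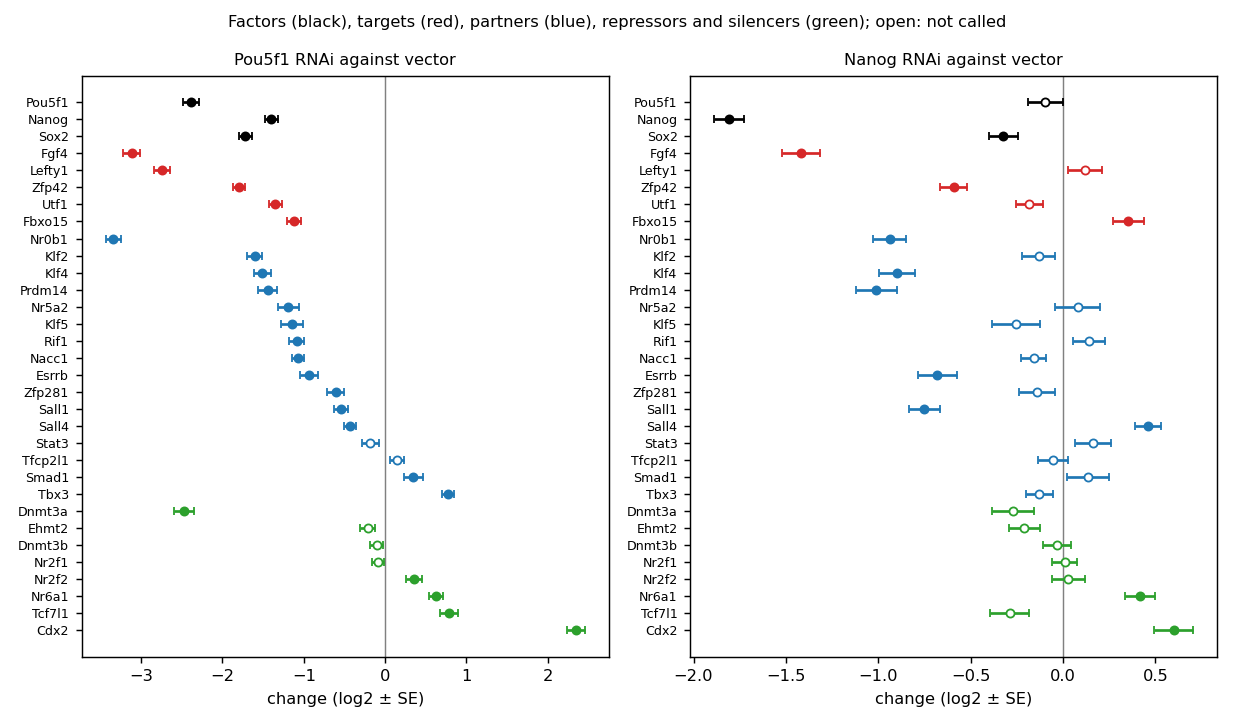
Change (log2 ± SE) after Pou5f1 RNAi and after Nanog RNAi of the 3 factors and of genes listed as their targets, their partners and their repressors or silencers, with filled points for calls and open points for the rest. All 5 targets lie below 0 after Pou5f1 RNAi, whereas after Nanog RNAi 2 of them are called lower and 1 higher, and the horizontal scales of the panels differ.

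Transcription factors and cofactors that act with the 3 factors formed a list of 16, all measured on the RNAi arrays. After Pou5f1 RNAi 12 fell and 2 rose, with a median of -1.002, where 15.6% of all probe sets were called lower and 16% higher. The change was -3.35 for Nr0b1, the orphan receptor Dax1 (adjusted p = 1.73e-16), -1.60 and -1.51 for the Krüppel-like factors Klf2 and Klf4, and -1.07 for the Nanog-binding cofactor Nacc1. The 2 that rose were the T-box factor Tbx3 (0.77, adjusted p = 5.74e-08) and the BMP effector Smad1 (0.35, adjusted p = 0.0326). After Nanog RNAi 5 fell and 1 rose, with a median of -0.14, where 6.78% were called lower and 8.8% higher. These 5 were Prdm14, a repressor of differentiation genes (-1.01), Nr0b1 (-0.94), Klf4 (-0.90), the zinc finger factor Sall1 (-0.75) and the orphan receptor Esrrb (-0.68). Sall4, a zinc finger factor of ES cells, rose by 0.46 after Nanog RNAi (adjusted p = 9.23e-05) and fell by 0.43 after Pou5f1 RNAi (0.000107).

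On the 2-colour arrays 14 of these partners were tested. RA lowered 8, DMSO 11 and HMBA 9, and none was called higher, with medians of -0.45, -1.06 and -0.65. Over all probes 10.5%, 7.62% and 11.4% were called lower in these treatments and 14.6%, 9.4% and 13.4% higher. Nr0b1 fell in all 3, with means of -3.49 in RA, -4.76 in DMSO and -4.43 in HMBA. In the same order the means were -1.87, -2.51 and -2.21 for Nr5a2, a nuclear receptor that binds the Pou5f1 promoter. They were -1.36, -1.96 and -1.70 for Esrrb, and -1.80, -3.64 and -2.50 for Klf4, all of them called. With dye orientation in the fit the counts lowered were 10, 11 and 10, where that fit called 23.3%, 18.4% and 23.7% of all probes lower, and 1 partner (Tbx3, 0.43) was called higher in RA. Without the DMSO day 4 array in Cy5 they were 9, 9 and 10.

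Repressors and silencers of the 3 factors were listed as 9 genes, 8 of them measured on the RNAi arrays. After Pou5f1 RNAi 4 rose, 1 fell and the median was 0.14, where 16% of all probe sets were called higher and 15.6% lower. Cdx2, the trophectoderm factor that opposes Oct4, rose by 2.34 (adjusted p = 8.25e-13). Nr6a1, the germ cell nuclear factor that represses Pou5f1, rose by 0.63 and Tcf7l1, a repressor in the Wnt pathway, by 0.79. Nr2f2 rose by 0.36, and the DNA methyltransferase Dnmt3a fell by 2.48 (adjusted p = 1.11e-12). After Nanog RNAi Cdx2 rose by 0.60 and Nr6a1 by 0.42, and no other was called, where 8.8% of all probe sets were called higher. In the treatments 6 were tested. Nr6a1 rose in all 3, by 1.11 in RA, 1.24 in DMSO and 1.33 in HMBA. Nr2f1, a COUP nuclear receptor, rose by 1.72 in RA (adjusted p = 9.49e-06) and by 0.64 in HMBA (0.00947) and was not called in DMSO (-0.04). In RA the methyltransferase Dnmt3b fell (-1.40). Cdx2 was called in no treatment, with values of 0.04, 0.18 and -0.08. The counts higher and lower were 2 and 1 in RA, 1 and 0 in DMSO, and 2 and 0 in HMBA. Over all probes 14.6%, 9.4% and 13.4% were called higher, and 10.5%, 7.62% and 11.4% lower. Under the fit with dye orientation the repressor counts were 2 and 1, 3 and 0, and 3 and 2. That fit called 26.2%, 22.8% and 24.2% of all probes higher, and 23.3%, 18.4% and 23.7% lower. Dnmt3b was then called higher in DMSO (0.55) and lower in HMBA (-0.52).

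The remaining SOX and POU genes moved in mixed directions. Of 19 other SOX genes measured after Pou5f1 RNAi, 5 fell and 2 rose, with a median of -0.08. The shares over all probe sets were 15.6% lower and 16% higher. The 5 were Sox17 (-1.27) and Sox7 (-0.60), both factors of primitive endoderm and listed above, and Sox12 (-0.71), Sox3 (-0.58) and Sox11 (-0.32). Sox15 rose by 0.35 and Sox4 by 0.28. After Nanog RNAi Sox17 rose by 0.60 and Sox18 by 0.47. Sox4 (-0.70) and Sox12 (-0.52) fell, where 8.8% of all probe sets were called higher and 6.78% lower. In the treatments 12 were tested, and Sox11, a neural SOX gene, rose by 1.51 in RA, 1.47 in DMSO and 1.46 in HMBA. Sox15, the SOX gene of ES cells that can pair with Oct4, fell in all 3 (-0.71, -0.99 and -0.81), and so did Sox3, a close relative of Sox2 (-0.86, -0.57 and -0.55). Sox13 rose in RA by 0.71 and in HMBA by 0.36, Sox4 rose in RA by 0.94, Sox12 rose in DMSO by 0.92 and Sox6 fell in DMSO by 0.94. The SOX counts higher and lower were 3 and 2 in RA, 2 and 3 in DMSO, and 2 and 2 in HMBA. Over all probes 14.6%, 9.4% and 13.4% were called higher, and 10.5%, 7.62% and 11.4% lower. Once dye orientation entered the fit the SOX counts were 6 and 2, 3 and 3, and 4 and 3. That fit called 26.2%, 22.8% and 24.2% of all probes higher, and 23.3%, 18.4% and 23.7% lower.

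Of 10 other POU genes measured on the RNAi arrays, Pou3f1 alone was called against vector in the fit by group. This epiblast and neural factor, Oct6, fell by 1.23 after Pou5f1 RNAi (adjusted p = 8.76e-10) and rose by 0.64 after Nanog RNAi (2.02e-05). Over all probe sets 15.6% were called lower and 16% higher after Pou5f1 RNAi, and 6.78% and 8.8% after Nanog RNAi. With the replicate number as a block, 2 POU genes were called lower after Pou5f1 RNAi. In the treatments 6 were tested. Pou3f2 rose by 0.86 in RA and 0.60 in HMBA, Pou3f1 rose by 0.51 in RA, and Pou4f1 fell by 0.53 in RA. Over all probes 14.6% were called higher and 10.5% lower in RA, and 13.4% higher in HMBA. In DMSO no POU gene was called, but 4 of 6 were called higher with dye orientation in the fit, which called 22.8% of all probes higher in DMSO. In HMBA that fit called 2 POU genes higher, where it called 24.2% of all probes higher.

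The genes next to Nanog on the chromosome were also followed, since Dppa3 and Gdf3, which lie next to each other on one side of it, are ES cell genes. Dppa3, which encodes Stella, fell by 2.01 after Pou5f1 RNAi (adjusted p = 1.22e-13) and rose by 0.91 after Nanog RNAi (6.32e-08). Gdf3, a TGF-beta ligand, fell by 2.35 after Pou5f1 RNAi and was not called after Nanog RNAi (0.05). In RA, DMSO and HMBA Dppa3 had means of -1.48, -2.01 and -1.88 and Gdf3 of -1.49, -1.79 and -2.32, all called lower. In RA both of these neighbours thus fell where the Nanog mean was -0.47. Of the other neighbours after Pou5f1 RNAi, the glucose transporter Slc2a3 rose by 0.51, the forkhead factor Foxj2 rose by 1.74, Apobec1 fell by 1.03 and C3ar1 was not called. Around Sox2, 6 of 7 listed neighbours were measured, with Dcun1d1 rising by 0.71 and Mccc1 falling by 0.44 after Pou5f1 RNAi. The overlapping transcript Sox2ot stood at a mean of 3.60 in vector cells and was called in neither RNAi group. Around Pou5f1, 4 of 6 were measured, and the 3 called after Pou5f1 RNAi were Psors1c2 (-0.25), H2-Q10 (-0.33) and Tcf19 (-0.35), all lower. Over all probe sets 15.6% were called lower and 16% higher after Pou5f1 RNAi. On the 2-colour arrays, H2-Q10 rose by 1.16 in RA, 1.02 in DMSO and 1.22 in HMBA, and H2-Q7 by 0.89, 1.09 and 0.99, in treatments whose Pou5f1 means were below 0. Both belong to the Q family of MHC class I genes, whose members are closely alike, so a probe may read more than its named gene. Psors1c2 and Tcf19 were not called there without the dye term. Of the 5 Sox2 neighbours on these arrays, Atp11b fell in RA (-0.44) and Dnajc19 in HMBA (-0.83), and no other call was made. When dye orientation entered the fit, the Sox2 neighbours called lower were 3 in RA, 3 in DMSO and 4 in HMBA. The Nanog neighbours called lower were then 3, 3 and 4 of 5, and 1 was higher in each treatment. For the Pou5f1 neighbours that fit called 2, 3 and 3 of 4 higher, and Psors1c2 lower in RA and HMBA. Over all probes it called 23.3%, 18.4% and 23.7% lower in RA, DMSO and HMBA, and 26.2%, 22.8% and 24.2% higher. Without the dye term these shares were 10.5%, 7.62% and 11.4% lower, and 14.6%, 9.4% and 13.4% higher.

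The genes most alike in pattern were ranked by Pearson r with each factor, as a description over arrays that share groups. Over the 14 RNAi arrays and 5070 genes with an SD of at least 0.3, Pou5f1 was closest to Meg3, an imprinted non-coding RNA (r = 0.998), then Prps1, Abhd14a, Hells and Mkrn1 (r of 0.994 or more). Sox2 ranked 162 for Pou5f1 (r = 0.975) and Nanog far lower (r = 0.326). Nanog was closest to Prelid2, Anp32a, Ndufv3, A2m and Nusap1 (r from 0.975 to 0.982). For example, A2m changed by -1.97 after Pou5f1 RNAi and by -2.41 after Nanog RNAi, against -1.40 and -1.81 for Nanog. Sox2 was closest to Esco2, Sap30, Zfp982, Sarnp and Rnf138 (r from 0.994 to 0.995).

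Over the 18 2-colour arrays and 5520 genes the nearest genes were others. Pou5f1 was closest to Snrpn, Gstt2, Tpd52, Nudt19 and Snurf (r from 0.932 to 0.955), of which the glutathione transferase Gstt2 fell in RA (-1.90) and HMBA (-1.48) and was not called in DMSO (-0.11). Snrpn and Snurf are transcribed together from an imprinted locus. Nanog was closest to Siah1b (r = 0.933), then Avpi1, Csnk1e, Prdm2 and Scamp1 (r from 0.844 to 0.881), and Siah1b rose by 1.37 in RA. Sox2 was closest to Dnaja1, Pole4, Dhx9, Hspa2 and Spry2 (r from 0.934 to 0.947). Of these, Spry2 was called lower in RA and HMBA, and the other 4 were called in no treatment mean, while all these arrays share the dye orientations described above. Among the factors themselves, r over these arrays was 0.30 for Pou5f1 and Sox2, -0.36 for Pou5f1 and Nanog, and -0.42 for Nanog and Sox2. These r pool both dye orientations, whose mean gaps had opposite signs for Sox2 (-1.36) and Nanog (0.57). They therefore do not measure the likeness of the factors over treatments alone, and likeness within an orientation was not tested.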

How the data were processed

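Levels on the RNAi arrays are log2 values that the authors deposited after RMA, per the submitters' processing notes, with no version given there. The 2-colour values are log ratios that the authors turned to sample over reference on every array, per the labels, and they were analysed as log2. Their background correction and normalization are not given in the sources used here. Members and gene lists were chosen with earlier results of these data known.

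Of 45101 probe sets, 64 control sets were left out and 45037 tested. Of 21106 probes on the 2-colour arrays, 16657 with a value in every treatment and day were tested, 10763 of them complete. Exactly 1 gene name was carried by 34945 probe sets and 13392 tested probes, from GEO's platform annotation, which gave 18193 and 12034 genes. The number of arrays limits the precision.

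Fits used limma 3.58.1 (lmFit, eBayes) under R 4.3.3. The RNAi arrays (14) were fitted by group and the ratio arrays (18) by treatment and day, with Benjamini-Hochberg adjustment over all features. Contrasts on day 2 alone were added after seeing the data. A treatment mean is the mean of its days against 0. The fits were tested on simulated data. Exact permutation tests used scipy 1.17.1 in Python 3.11.15, and figures matplotlib 3.10.9. Listed genes were read from the probe set of highest mean or the most complete probe. At most 4 per list and comparison were named, by smallest adjusted p. Other listed genes named, including members of a count of 5 or fewer, and the neighbours were picked after their values were seen.

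On the 2-colour arrays a replicate number marks a dye orientation, per the labels. Deviations of same-numbered arrays correlated in 72 of 72 pairs (r from 0.51 to 0.92), so these numbers pair the arrays. With 2 arrays per group the deviations are equal and opposite. Numbers 1 and 2 thus give the same r for any 2 groups, and the 72 pairs are not independent. The labels do not say whether the arrays of a pair carry separate RNA. Promoter windows came from RefSeq (GRCm38.p6).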

Additional observations from a re-analysis of the deposited data

Results flagged for a closer look

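The following results were set aside because an effect differed between groups by its own limma contrast, with adjusted p under 0.05. Between the RNAi groups (Pou5f1 RNAi minus Nanog RNAi), Pou5f1 differed by -2.29, Nanog by 0.41 and Sox2 by -1.40 on the log2 scale. Between treatments, Pou5f1 was lower in RA than in DMSO (-1.31) and higher in DMSO than in HMBA (0.85). Nanog was higher in RA than in DMSO (1.09) and higher in RA than in HMBA (0.93). Between days 2 and 6 Pou5f1 changed by -1.68 in DMSO and by -2.08 in HMBA. Whether the change over days itself differs between treatments was not tested.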

How the results depend on the processing

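All 9 RNAi results kept their direction and side of the threshold under all 20 alternatives run for each, which were single omissions, quantile or median rescaling, a filter on dim probe sets, trend and robust variances, fits of the compared groups alone and the replicate number as a replicate block. Under that replicate block the change of Sox2 after Nanog RNAi was -0.32 (adjusted p = 0.0073). RNAi replicate numbers were not taken to pair all arrays, since 5 of 13 same-numbered pairs correlated above 0.1. Between vector and Nanog RNAi arrays r ran from 0.089 to 0.44, and in pairs with Pou5f1 RNAi from -0.25 to 0.20. Whether vector and Nanog RNAi arrays were paired was not tested.

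On the 2-colour arrays, dye orientation as a replicate block added calls for the Nanog RA mean (-0.47), the Pou5f1 RA against HMBA difference (-0.46) and the Sox2 DMSO against HMBA difference (-0.57). It ended no call of a mean or treatment difference. With dye pairs averaged and days as replicates, calls were lost for the Pou5f1 DMSO mean (-0.62), Pou5f1 in RA against DMSO (-1.31) and DMSO against HMBA (0.85), and Nanog in RA against HMBA (0.93). The cause was not tested, but this fit has fewer values and counts the change over days as spread. Nanog in RA against HMBA also lost its call with arrays scaled to equal spread (1.00) and with trend and robust variances (0.93). The Nanog RA mean gained one among complete probes (-0.47).

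On arrays of a single orientation, an alternative chosen after seeing the data, the Nanog RA mean was called in Cy3 (-0.78). Calls were lost in both Cy3 and Cy5 for the Pou5f1 DMSO mean (-0.63 and -0.61), Pou5f1 in RA against DMSO (-1.33 and -1.28) and in DMSO against HMBA (0.59 and 1.10), and Nanog in RA against HMBA (0.87 and 0.99). Over single omissions the Nanog RA mean ran from -0.61 to -0.33, the Sox2 HMBA mean from -1.59 to -1.13, Nanog in RA against HMBA from 0.79 to 1.07 and Pou5f1 in DMSO against HMBA from 0.76 to 0.94. Sox2 in RA against DMSO, never called, ran from -0.10 to 0.60 and changed sign without RA day 4 or day 6 in Cy3 (-0.026 and -0.0032) or DMSO day 4 in Cy5 (-0.10). The base of the log ratios could not be judged from the values, so no value is given for another base.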
